A study of Mus musculus with 10 samples.

Results

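The AY036118 locus on mouse chromosome 17, a stretch of ribosomal RNA gene sequence outside the ribosomal DNA arrays, was examined for trimethylation of histone H3 lysine 27 (H3K27me3) together with a shorter similar copy on chromosome 6. In the mm9 genome build the locus was the window chr17:39979851-39985850, and the copy was the window chr6:3150770-3151677. The locus had been chosen from the measured peaks themselves, because the widest H3K27me3 peak of each resistant line lay there, so its peak widths are given as a description and carry no test. Together these were 2 of the 47264 regions formed by merging overlapping peaks of the 5 lists. Each list held exactly 1 distinct peak at the locus and 1 at the copy, where the lists held 10778 (parental), 25180 (R100), 21888 (R500), 9595 (R1000) and 6820 (R4000) distinct peaks.

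Ribosomal RNA is transcribed by RNA polymerase I from tandem gene arrays as a 45S precursor, which holds an external spacer, the 18S rRNA, internal spacers around a short rRNA, the 28S rRNA and a final spacer, in that order. Many gene copies in the arrays are kept silent by heterochromatin, and genome assemblies leave most of the arrays out. H3K27me3 is a repressive mark placed by polycomb repressive complex 2, and in B cells it is best known from developmental genes that are held off.

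The 5 lines were mouse B-cell lymphoma cells carrying the Eµ-Myc transgene, whose immunoglobulin heavy chain enhancer drives Myc in the B lineage, and lacking Cdkn2a, from a C57BL/6J animal. The parental line had not been adapted to mafosfamide, an alkylating agent, and R100, R500, R1000 and R4000 were the survivors harvested from escalating culture at 100, 500, 1000 and 4000 nM after 10, 18, 23 and 37 days. Dose, time and line therefore cannot be told apart, and all lines came from 1 parental line. For chromatin immunoprecipitation every line was grown without drug. All 5 carried the Cdkn2a deletion, and the lists held 0 bp of peak over Cdkn2a (chr4:88920377-88940557) in every line. This is no check of the deletion, since most genes lacked peaks too. In R100, 7.48% of all genes had at least 150 bp of peak in the 5 kb upstream of their start, the largest share of any line. Only 1 list was analysed per line, with positions alone, so peak heights and sequencing depth are unknown and no difference between lines could be tested.

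The sequence at the ends of the 18S part shows where the parental peak began and stopped. These stretches are the plus strand of mm9, 5′ to 3′, at chr17:39983251-39983400 and chr17:39985051-39985200, with the bases under the parental peak in capitals.

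18S 5-prime side: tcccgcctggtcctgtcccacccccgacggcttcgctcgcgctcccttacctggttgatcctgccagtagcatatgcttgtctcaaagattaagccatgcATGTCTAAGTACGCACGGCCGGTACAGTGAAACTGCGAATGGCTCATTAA
18S 3-prime side: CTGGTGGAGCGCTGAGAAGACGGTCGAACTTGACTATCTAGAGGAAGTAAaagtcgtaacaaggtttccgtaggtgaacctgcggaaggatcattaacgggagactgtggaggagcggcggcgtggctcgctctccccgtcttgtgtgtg

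The 18S part was placed by the motif TACCTGG, with which 18S rRNA starts, and GATCATTA, with which it ends. Each was found 1 time on the plus strand of the window, at bases 3448 and 5289 counted from its left end. Of all 425923 tiles of 6000 bp in the genome, 52.3% held the first motif on either strand, 13.9% the second and 7.33% both, so the motifs mark the ends but do not identify the sequence. The stretch between them, chr17:39983298-39985146, measured 1849 bp. The RefSeq gene table (GRCm38.p6) lists the 18S gene Rn18s-rs5 next to AY036118, also with a length of 1849 bp. None of the 332 rRNA genes annotated in this build gave a match to the window, so no part beyond 18S was placed.

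In the 45S precursor the external spacer precedes 18S and the first internal spacer follows it, but without a 45S reference neither spacer was identified in the window. The sequence upstream of 18S filled 3355 bp (chr17:39979943-39983297), and the sequence downstream filled 704 bp (chr17:39985147-39985850). The annotated pseudogene AY036118 (ENSMUSG00000045999.8, minus strand, chr17:39985048-39985772) was 725 bp long, with 99 bp in the 18S part and the rest in the downstream sequence. The nearest protein-coding genes were Gm20516, 1197 kb to the left, and Pgk2, a testis form of phosphoglycerate kinase, 358 kb to the right.

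The outer edges of the window show what surrounds the rRNA sequence. The stretches below are the plus strand at chr17:39979851-39980000 and chr17:39985701-39985850. In the first, capitals run from the first base that aligned elsewhere in the genome over at least 200 bp at 90% identity. In the second, capitals mark the right-hand part of the annotated AY036118 gene, which holds its start because the gene is on the minus strand.

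left edge: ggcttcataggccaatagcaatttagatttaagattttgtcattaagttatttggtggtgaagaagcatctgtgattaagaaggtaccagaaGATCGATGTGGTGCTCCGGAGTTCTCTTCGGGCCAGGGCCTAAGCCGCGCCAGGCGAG
right edge: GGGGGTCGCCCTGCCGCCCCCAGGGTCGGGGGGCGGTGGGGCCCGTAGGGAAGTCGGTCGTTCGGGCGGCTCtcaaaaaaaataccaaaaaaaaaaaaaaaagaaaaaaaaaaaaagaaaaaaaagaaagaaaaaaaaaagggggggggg

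On the left, 92 bp of sequence with a GC content of 34.8% gave way to GC-rich sequence. On the right, upstream of the minus-strand gene, the plus strand held a tract made almost wholly of A, with a run of G at the end of the window.

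In the parental line the peak stood over the 18S part alone. It spanned chr17:39983351-39985100, 1750 bp or 29.2% of the window, starting 53 bp after the 18S start and ending 46 bp before the 18S end. In R100 and R500 the peak spanned the whole window, 6000 bp. In R1000 it spanned 5950 bp, ending 50 bp short on the right, and in R4000 it also spanned 5950 bp, starting 50 bp short on the left. The peaks were set on a grid of 50 bp, and each resistant peak left at most 1 bin of the window uncovered, on opposite sides in R1000 and R4000.

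**Figure D1:**
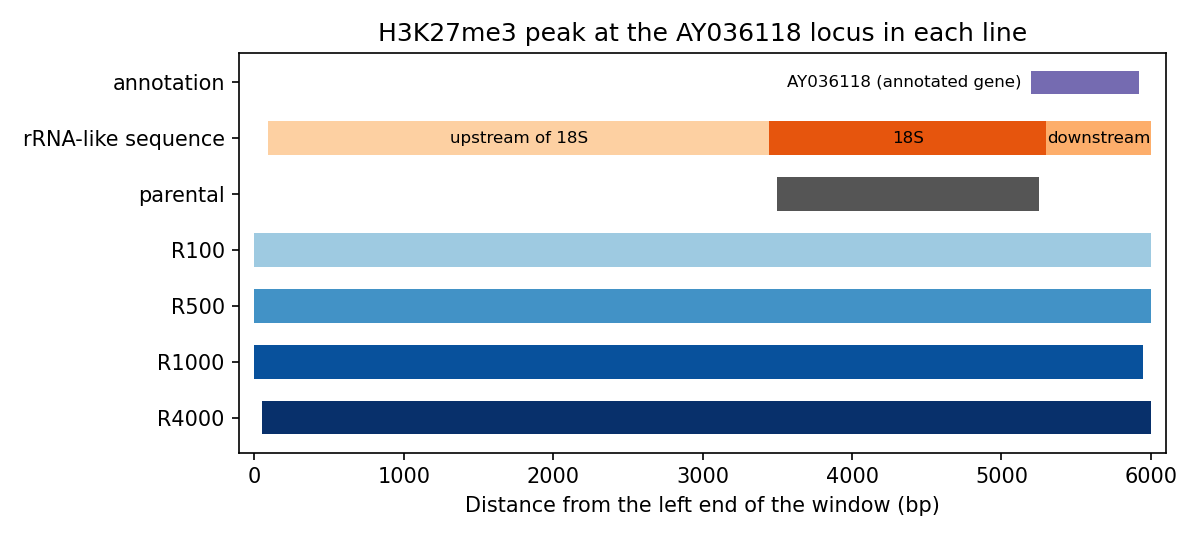
H3K27me3 peak of each line (bars) along the AY036118 window, with the parts of the rRNA sequence and the annotated gene above; the x axis is the distance in bp from the left end of the window. The parental bar of 1750 bp stays inside the 18S part, and the resistant bars of 5950 to 6000 bp reach over the sequence on both sides of it.

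Bin by bin, the lines parted on both sides of 18S more than within it. Of the 36 bins of 50 bp wholly inside 18S, the parental peak covered 35 and every resistant peak 36. Of the 68 bins upstream of 18S, the flank included, the parental peak covered 0, those of R100, R500 and R1000 covered 68, and that of R4000 covered 67. Of the 14 bins downstream, the parental peak covered 0, R1000 covered 13, and R100, R500 and R4000 covered 14. The 2 bins that straddle the 18S ends were covered in the resistant lines only. The annotated AY036118 gene had 53 bp under the parental peak and all 725 bp under the peak of every resistant line.

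The width set the locus apart from the rest of each resistant list, as its choice required. In the parental line its peak was at rank 11 by width, with 12 peaks, or 0.111%, at least as wide, and the widest parental peak was 3250 bp at chr1:193007451-193010700. In R100 the next widest peak was 4950 bp, in R500 4900 bp, in R1000 3650 bp and in R4000 2550 bp, so the locus peak was 1.21, 1.22, 1.63 and 2.33 times as wide. The median peak was 100 bp in every list. The locus took 0.107% of all covered bases in the parental list, 0.119% and 0.132% in R100 and R500, and 0.369% and 0.554% in R1000 and R4000.

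**Figure D2:**
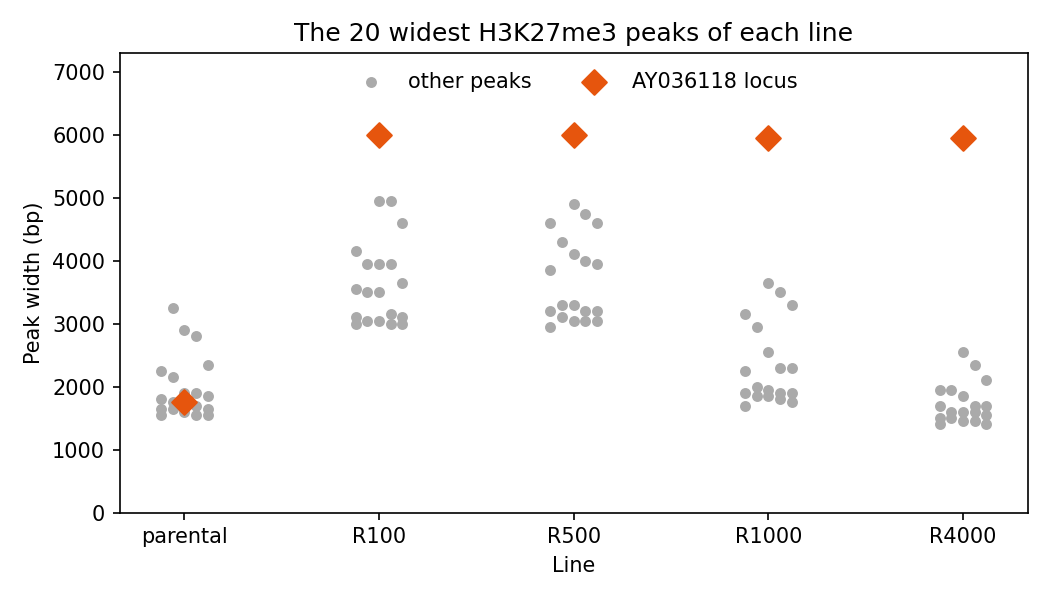
Width in bp of the 20 widest peaks of each line (grey points) with the peak at the AY036118 locus as a diamond. The diamond is among the others at 1750 bp in the parental line and above all others at 5950 to 6000 bp in the 4 resistant lines.

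The cover of wide R100 peaks in the other lines is given as a description, since the locus was chosen by its width in R1000 and R4000 as well. R100 held 653 peaks of at least 1000 bp, the locus included. The share of their bases covered in R500 had a median of 87.5%, against 100% at the locus. In R1000 the median was 46.2%, against 99.2% at the locus. In R4000 the median was 30.0%, against 99.2%. In the parental line the order was the other way, with a median of 36.0% against 29.2% at the locus. Peaks of at least 1000 bp numbered 90 before drug adaptation, 643 in R500, 115 in R1000 and 74 in R4000.

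Of the 929 merged regions with at least 1000 bp covered in some line, 82, the locus included, had some cover in every resistant line and at least 3 times the parental covered length. Among these the locus had the most bases covered in R4000, 5950 bp. It was chosen for its peak width in that line, so this rank is a description only. The next was Nes, which encodes the intermediate filament nestin, with 300 bp covered before drug adaptation and 1850, 1900, 1250 and 1200 bp along the 4 resistant lines. After Nes, a region at Dbn1 and Prr7 and a region at Tal1 were level in R4000. The first had 300 bp and then 2100, 1800, 900 and 1000 bp in the same order. Tal1, a transcription factor of blood stem cells, had 150 bp and then 1700, 1800, 550 and 1000 bp. All these genes were named after their values were seen.

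The regions whose covered lengths over the 5 lines lay closest to those of the locus were at developmental transcription factor genes. The distance was the sum over lines of the absolute difference in covered bp. Lhx9, a LIM homeobox gene (chr1:140733351-140739650), was nearest at 6900 bp, with 4350, 5850, 5500, 4450 and 3800 bp covered from the parental line to R4000. Sp9, a zinc finger gene, followed at 8600 bp, with 2850, 4600, 4600, 3850 and 3350 bp. The homeobox genes Hoxa11, Hoxa10 and Hoxa7 were at distances of 8850, 9250 and 9450 bp. Where the locus had 50 bp less covered in R4000 than in R100, these regions fell further. The locus was chosen by its peak width in both lines, so this contrast is a description only. Lhx9 went from 5850 to 3800 bp, Sp9 from 4600 to 3350 bp, Hoxa11 from 4950 to 3100 bp, Hoxa10 from 4950 to 2900 bp and Hoxa7 from 6650 to 3150 bp. The likeness was loose, and a measure on the covered share of each region gave 5 other regions, which are not reported here.

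The locus lay far from any other peak. From the parental line to R4000, the nearest one on the left was 3.59, 2.89, 2.57, 2.9 and 3.59 Mb away. On the right the distances were 3.03, 3.43, 3.03, 3.03 and 4.51 Mb. Chromosome 17 held 365, 1106, 995, 453 and 257 peaks in the same order.

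The base composition of the locus was extreme for the genome and differed between its parts. The whole window had a GC content of 63.9%, and 5 of the 425923 tiles, or 0.00117%, were at or above it. The sequence upstream of 18S had 69.1%, the 18S part 55.4% and the sequence downstream 65.8%. The 18S part, which alone was covered in the parental line, was thus the part with the lowest GC content of the 3. CpG dinucleotides, 597 in the window, stood at 0.98 times the number its C and G content gives, with 0.94 upstream, 0.99 in 18S and 1.08 downstream. The motif GTCGAC, the SalI site, was found at bases 2545 and 3124 of the window, both upstream of 18S. This short motif is part of the longer terminator elements of mouse rDNA, which were not searched, so no terminator was identified here. The motif was in 7.66% of the genome's tiles. Nearly all tiles had a lower GC content than the window, so that share is not a matched comparison.

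**Figure D3:**
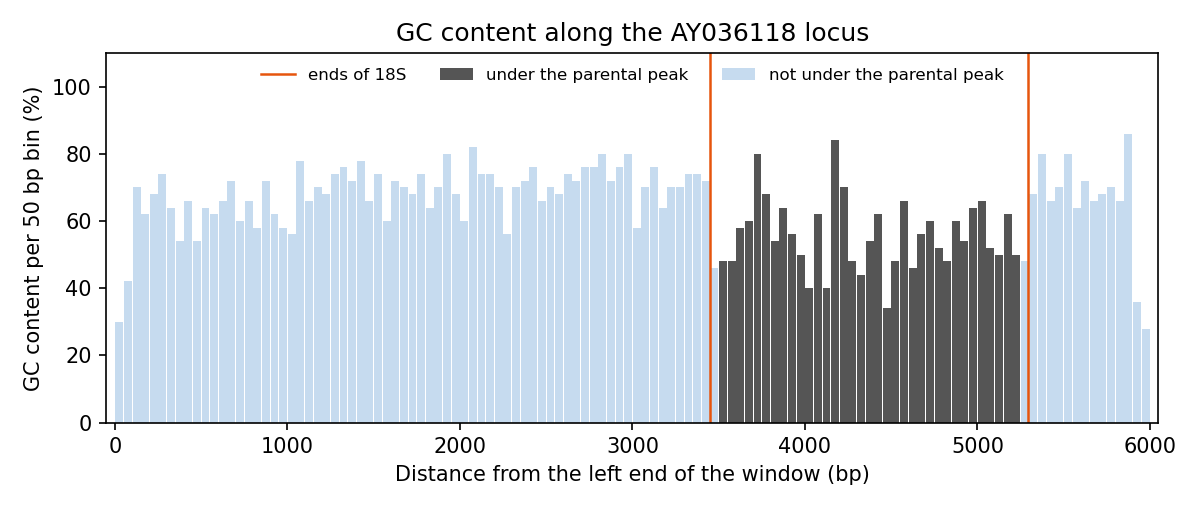
GC content in percent of each 50 bp bin along the AY036118 window, by distance in bp from its left end, with bins under the parental peak in dark grey and the ends of 18S as vertical lines. Bins within 18S have a median of 54%, and those upstream and downstream have medians of 70% and 68%.

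Set against the other wide peaks of each line, the locus was less unusual in GC content than in CpG content. Its peak had 55.9% GC in the parental line, where the median of the 90 peaks of at least 1000 bp was 54.1%. It had 63.9% in R100 and R500, against medians of 58.2% and 57.1%, and 64.2% in R1000 and R4000, against 57.1% and 56.7%. The ratio of observed to expected CpG was 1.0 in the parental peak and 0.97 to 0.98 in the resistant peaks, while the medians lay between 0.59 and 0.67. A higher ratio was found in 1 of the 90 parental wide peaks, 4 of 653 in R100, 2 of 643 in R500, 2 of 115 in R1000 and 1 of 74 in R4000.

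Reads from the rDNA arrays and from this locus cannot be told apart in these files. All 3306 of the 50-base words upstream and all 655 downstream occurred 1 time in mm9. In the 18S part 1259 of 1800 words, or 69.9%, did. These are exact matches, and the start of the upstream sequence also aligned to a stretch on chromosome 11 (chr11:103934023-103934450) at 92.3% identity. In the 92 bp flank, which only the resistant peaks reached, 35 of 43 words occurred 1 time. The number of rDNA repeats in each line, and its part in these peaks, was not tested.

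The copy on chromosome 6 carried a peak in every line, and it changed little between them. It aligned to 901 bp of the 18S part (bases 3776 to 4676 of the window) with 98.2% identity, 16 mismatches and no gap. The stretch shared by the peaks of all lines, chr6:3151351-3151600, and its counterpart, chr17:39984207-39984456, are shown with their 8 mismatches in capitals.

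chr6 shared: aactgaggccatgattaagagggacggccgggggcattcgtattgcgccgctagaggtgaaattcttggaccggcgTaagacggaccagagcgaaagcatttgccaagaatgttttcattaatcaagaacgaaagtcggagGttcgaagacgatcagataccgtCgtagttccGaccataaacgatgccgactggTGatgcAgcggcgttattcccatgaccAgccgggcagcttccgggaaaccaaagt
chr17 counterpart: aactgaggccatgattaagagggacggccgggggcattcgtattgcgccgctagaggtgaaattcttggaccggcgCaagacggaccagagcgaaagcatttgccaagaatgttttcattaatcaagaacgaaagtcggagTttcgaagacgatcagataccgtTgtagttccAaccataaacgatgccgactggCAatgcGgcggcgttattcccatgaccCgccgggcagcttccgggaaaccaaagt

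The peak on chromosome 6 measured 250 bp in both the parental line and R4000, 350 bp in R100, and 300 bp in R500 and R1000, or 27.5% to 38.5% of the copy. The parental and R4000 peaks were the same interval. Peaks of this width were common, with 16.5%, 14.9%, 19.1%, 15% and 17.5% of all peaks at least as wide in the parental, R100, R500, R1000 and R4000 lists. It was the first peak on chromosome 6 in every list, and the next one was 854, 235, 235, 2181 and 5008 kb away in the same order. The nearest protein-coding gene, Samd9l, was 171 kb away.

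The peaks stood at the end of the copy where it differed most from chromosome 17. The 581 bp before the shared peak had 6 mismatches, and 206 of their 532 words of 50 bases occurred 1 time in the genome. The 250 bp of the shared peak had 8 mismatches, and 159 of 201 words occurred 1 time. The first stretch held no peak in any line but R100, where the peak began 50 bp earlier.

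**Figure D4:**
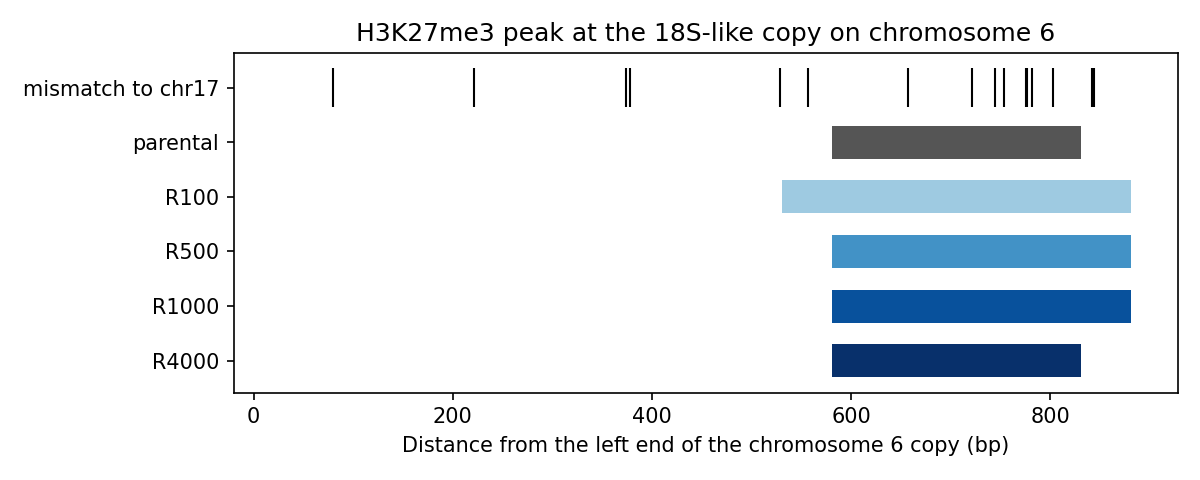
H3K27me3 peak of each line (bars) along the chromosome 6 copy, by distance in bp from its left end, with black ticks where the copy differs from chromosome 17. The bars of 250 to 350 bp lie over the right part of the copy, where 8 of 16 mismatches fall within the stretch shared by all lines.

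No other copy of the locus sequence had a peak. The genome held 5 alignments outside the locus of at least 200 bp and 90% identity, on chromosomes 1, 6, 10, 11 and 19, and the one on chromosome 6 was covered in each line while the other 4 were covered in none. The chromosome 6 copy was chosen with results of these data known, so only the other 4 can be set beside the genome. A peak overlapped 0.392% of the genome's 1 kb windows before drug adaptation and 0.934%, 0.804%, 0.349% and 0.249% along the 4 resistant lines. At shares this low, 4 copies without a peak do not set these copies apart from the genome. With the limits lowered to 100 bp and 70% identity there were 37 copies, and again only the chromosome 6 copy had a peak. Among the 332 annotated rRNA genes, most of them 5S genes, the gene body met a peak in 1, 0, 3, 1 and 0 cases in the parental, R100, R500, R1000 and R4000 lists. The share of all gene bodies that met a peak was not counted, so these cases cannot be called few or many.

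Promoter cover was counted for 3 lists of genes that make and process rRNA. A promoter was counted with at least 150 bp of peak in the 5 kb upstream of the transcription start site (TSS), and by this count 3.04% (parental), 7.48% (R100), 6.69% (R500), 3.32% (R1000) and 2.46% (R4000) of 37310 annotated genes were covered. Of 21 genes of the RNA polymerase I machinery, 0, 2, 3, 1 and 0 were covered from the parental line to R4000. Of 20 regulators of rDNA chromatin, 1 was covered in R500 and 0 in the other lines. Of 42 genes of pre-rRNA processing, 1, 4, 3, 0 and 0 were covered in the same order. No gene of these lists was covered in all 5 lines.

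In the polymerase I list, Cd3eap, a subunit of the enzyme, had 0, 450, 300, 200 and 50 bp from the parental line to R4000. Polr2l, a subunit shared by the 3 nuclear RNA polymerases, had 0, 400, 200, 50 and 0 bp in the same order. Ubtf, which binds the rDNA promoter and gene body, had 250 bp in R500 and 0 bp elsewhere. The covered regulator was Ctcf, an insulator protein, with 150 bp in R500. In the processing list, Emg1, a methyltransferase acting on 18S rRNA, had 0, 500, 300, 100 and 0 bp, and Ncl, the nucleolar protein nucleolin, had 0, 300, 500, 0 and 0 bp. Nob1, the nuclease that forms the 18S 3′ end, had 151 bp in R500, and Rcl1, which acts in early cleavage, had 200 bp in R100. The parental gene was Heatr1, a factor of the small subunit processome, with 150 bp before drug adaptation and 250 bp in R100, named after its values were seen. These promoters were covered mainly in R100 and R500, where the shares of all genes were also highest, 7.48% and 6.69%. In R4000 none of them reached 150 bp with this window, and there the share of all genes was lowest, 2.46%. All but Heatr1 were named for being covered in resistant lines and not in the parental line.

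In every resistant line the counts of chromatin regulators and processing genes rose when the window was placed on both sides of the TSS. The count of polymerase I genes rose in R100 only, and the share of all genes rose in every line. With 2 kb taken on each side, 4.05% (parental), 12.6% (R100), 9.87% (R500), 5.22% (R1000) and 4.25% (R4000) of all genes were covered. In this window 0, 5, 2, 1 and 0 polymerase I genes, 0, 8, 6, 1 and 1 chromatin regulators, and 0, 16, 11, 7 and 4 processing genes were covered from the parental line to R4000. Ncl, for example, had 0, 1000, 1150, 200 and 400 bp. The lists were chosen with results of these data known, so these shares are a description.

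**Figure D5:**
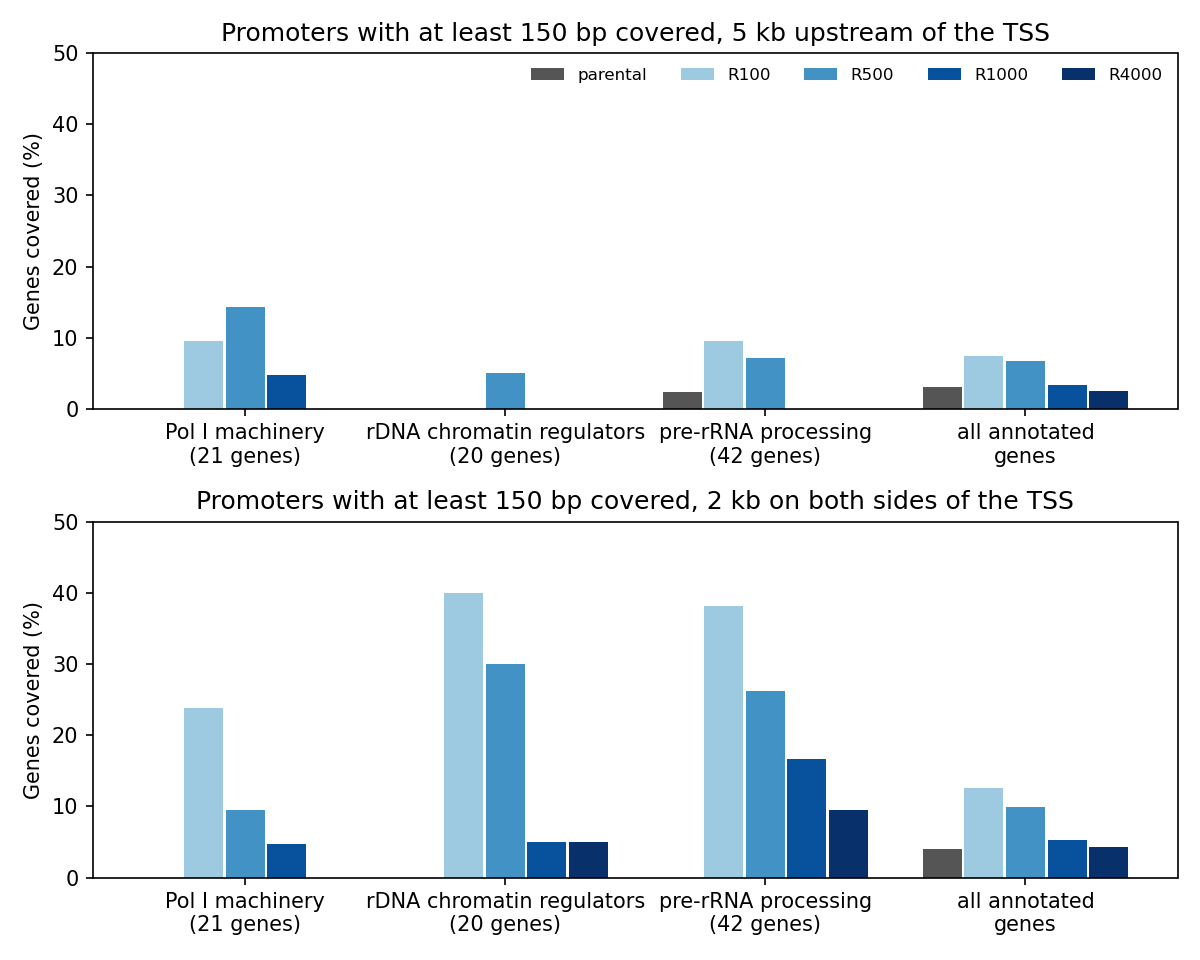
Percent of genes with at least 150 bp of peak at the promoter, for the 3 gene lists and for all annotated genes, in each line (bars), with the window 5 kb upstream of the TSS above and 2 kb on both sides below. The bars of R100 and R500 are mostly the highest. The lists and all genes reach higher shares in the lower panel, up to 40% of the 20 chromatin regulators in R100.

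Marker genes of the B lineage and of other lineages were counted too. With the upstream window, 1 of 10 B-cell marker promoters was covered in R100 and 0 in the other lines, and of 13 markers of other lineages 0, 2, 1, 1 and 0 were covered from the parental line to R4000. A repressive mark at a promoter does not measure their expression, so the cell type was not checked by it.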

How the data were processed

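H3K27me3 ChIP-seq peaks were analysed for 5 lines. Reduced representation bisulfite libraries of the same lines (5 samples) were not used here. To make the lists, the authors compared immunoprecipitated with input reads by Poisson statistics in tiled windows, and they deposited 1 list of positions per line, with no score. The submitters' processing notes name Bowtie and mm9. The study describes replicates of this assay and a p-value limit for its promoter clusters. Whether the deposited lists pool replicates, and their own threshold, are not given in the sources used here. Every interval appears 2 times for R100 and R500 and was counted 1 time.

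The locus, its copy and the gene lists were chosen with earlier results of these data known. Peaks were counted with any overlap. Sequence was read from NCBIM37 (mm9), and copies were found with blastn 2.17.0. The other tools were Python 3.11.15, pandas 2.3.3, numpy 2.4.6, pysam 0.24.0 and matplotlib 3.10.9. Overlap counting was tested on simulated data beforehand. Of 22 polymerase I symbols, 21 were found in the annotation. Named genes were AY036118, Cdkn2a, the 5 regions most like the locus and, per list, those covered in all lines and up to 5 covered in the largest number of resistant lines and not in the parental line, by the upstream window. Lines were not compared by a test, since each has 1 list.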

Additional observations from a re-analysis of the deposited data

How the results depend on the processing

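Covered length and widest peak at the locus moved by no more than 50 bp under peaks of at least 500 bp, joining within 1000 bp, at least 50% of the peak inside, a window longer by 1000 bp on both sides and lists reduced to the 6820 widest peaks. Counting every deposited row gave 12000 bp in R100 and R500, because those lists repeat each peak. At the chromosome 6 copy, peaks of at least 500 bp left 0 bp in every line. Requiring 50% of a copy covered left 0 of 5 copies with a peak in every line; the other copy limits left 1. Gene list counts moved most. In the order parental, R100, R500, R1000 and R4000, a minimum of 50 bp gave 0, 5, 4, 2 and 2 polymerase I genes, 1, 1, 1, 0 and 0 regulators, and 4, 8, 7, 2 and 2 processing genes. A minimum of 500 bp gave 0 polymerase I genes and 0 regulators in every line, and 0, 1, 1, 0 and 0 processing genes. The widest peaks gave 0, 1, 2, 1 and 0 polymerase I genes, 0 regulators, and 1, 1, 2, 0 and 0 processing genes. A window of 2 kb to each side of the start site gave 0, 5, 2, 1 and 0, then 0, 8, 6, 1 and 1, then 0, 16, 11, 7 and 4. Of the 5 regions most like the locus, 0 were kept by the covered share. The count of copies at 100 bp and 70% identity was added after seeing the data. No paired analysis was possible because each line has 1 list and the labels give no replicate numbers.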
